A study of Mus musculus with 7 samples.

Results

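Genes of cholangiocytes, the epithelial cells that line the bile ducts, and of the ductular reaction were examined in mouse livers with and without hepatocyte *B4galt1*. The 8 genes were chosen by name: *Krt7*, *Krt19*, *Krt23*, *Epcam*, *Cldn4*, *Sox9*, *Prom1* and *Cftr*. All 8 were among the 23347 genes of the deposited table, and all 8 were among the 15179 genes with enough counts to be tested. The samples were whole livers of 4 control male mice and 3 labelled as hepatocyte knockouts on a C57BL/6 background, 1 library per mouse. The controls were *B4galt1* flox/flox littermates, which carry both alleles flanked by recombination sites and no Cre. They are called WT in the sample labels. In *B4galt1* hep-/- mice, called B4galt1-HKO in the labels, a Cre recombinase driven by the albumin promoter is meant to remove the gene from hepatocytes. Cholangiocytes keep it unless their hepatoblast ancestors had already expressed the Cre. Mice of both groups were 6 to 8 weeks old when they were put on CDAHFD, a choline-deficient, amino acid-defined, high-fat diet that causes steatohepatitis, and they ate it for 15 weeks. Chow-fed mice were not analysed here, so the effect of the diet was not measured.

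In a ductular reaction, strings of small duct-like cells spread from the portal tracts into the lobule. It accompanies many chronic liver injuries, advanced steatohepatitis among them, and its cells can come from existing bile ducts or from hepatocytes that take on biliary features. Biliary cells are set apart from hepatocytes by the keratins KRT7 and KRT19, by the adhesion protein EPCAM and by the transcription factor SOX9. The chloride channel CFTR serves the secretion of bicarbonate into bile.

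*B4galt1* itself was measured at a CPM (read count scaled to a common library size) of 48.7, 53.0, 49.2 and 51.7 in flox/flox mice 1 to 4, and at 28.4, 23.9 and 53.7 CPM in hep-/- mice 1 to 3. The third hep-/- liver lay above every flox/flox liver, so the group is given below by its label. Between the groups it differed by a log2 fold change of -0.52 with a standard error of 0.26, and edgeR gave an adjusted p of 0.181, short of the threshold. Without hep-/- mouse 3 it stood at -0.96 (edgeR adjusted p = 0.0139) and was called, as it was on log2(FPKM + 0.1) with all mice, and without hep-/- mouse 2 it stood at -0.30 (adjusted p = 0.461). Library totals ran from 37838654 to 39668509 counts in flox/flox mice and from 30608271 to 34586588 counts in mice labelled hep-/-. Mitochondrially encoded genes took 3.88% to 8.0% of the counts in the former and 14.4% to 22.6% in the latter. The smallest library was that of hep-/- mouse 2, in which most of the biliary genes were highest (given below). CPM values are scaled by TMM, a method that sets library sizes from genes without extreme changes.

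The promoters of *Krt7*, *Epcam* and *Krt23* are shown because *Krt7* and *Epcam* were both lowest in flox/flox mouse 4 and highest in hep-/- mouse 2 while *Krt23* was neither. They are the 250 bases before the RefSeq gene start in GRCm38.p6, 5′ to 3′ on the strand of the gene. That is an older build than the GRCm39 named in the submitters' processing notes. RefSeq windows were found for 6 of the 8 genes and not for *Krt19* or *Sox9*. The windows lie at chr15:101412153-101412402 on the plus strand for *Krt7*, at chr17:87635729-87635978 on the plus strand for *Epcam* and at chr11:99493121-99493370 on the minus strand for *Krt23*. Capitals mark ATAAAA, a run of letters like a TATA box.
Krt7: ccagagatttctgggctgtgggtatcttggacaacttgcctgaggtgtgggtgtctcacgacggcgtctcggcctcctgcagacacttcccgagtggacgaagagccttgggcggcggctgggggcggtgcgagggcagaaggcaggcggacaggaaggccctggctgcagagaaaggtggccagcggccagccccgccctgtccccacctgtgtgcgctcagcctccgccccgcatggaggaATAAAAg
Epcam: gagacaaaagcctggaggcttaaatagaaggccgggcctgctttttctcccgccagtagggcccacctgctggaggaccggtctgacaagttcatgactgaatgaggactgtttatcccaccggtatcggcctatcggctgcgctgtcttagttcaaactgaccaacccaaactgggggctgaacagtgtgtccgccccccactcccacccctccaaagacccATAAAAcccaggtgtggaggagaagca
Krt23: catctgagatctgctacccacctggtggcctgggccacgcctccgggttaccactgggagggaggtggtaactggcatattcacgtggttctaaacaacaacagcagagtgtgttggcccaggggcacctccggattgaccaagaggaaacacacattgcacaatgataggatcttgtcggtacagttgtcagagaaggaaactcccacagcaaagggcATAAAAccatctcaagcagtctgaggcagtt

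ATAAAA began 7 bases before the gene start in *Krt7*, 27 in *Epcam* and 31 in *Krt23*. Searched on both strands, it was present in 17.0% of the 32851 promoter windows of the same length. It was looked for after these sequences had been seen,. A run of TATAAAA would hold both ATAAAA and TATAAA, but none of the 3 windows held TATAAA, the TEAD motif GGAATG or the RBPJ core TGGGAA, which were present in 12.4%, 12.6% and 21.6% of all windows. The windows of *Cldn4* and *Cftr* held none of these 4 strings, and 1 of the 2 windows listed for *Prom1* held TGGGAA on the strand opposite the gene, 116 bases before its start. GC content was 66.0% for *Krt7*, 56.4% for *Epcam* and 52.8% for *Krt23*.

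To learn whether biliary genes differed between the genotypes on the diet, counts were compared with the quasi-likelihood test of edgeR, whose adjusted p-values (Benjamini-Hochberg, over all tested genes) are the ones given below. A gene was called when that value was under 0.05 and its level differed by more than 0.58 in either direction on the log2 scale. None of the 8 genes was called, where 15.8% of all tested genes were (7.83% as lower in livers labelled hep-/-). Their fold changes ran both ways, 5 higher and 3 lower, and *Krt23* alone had an unadjusted p under 0.05. It was the one gene called by DESeq2 and by limma-voom with sample quality weights, in both as lower. The median log2 fold change of the 8 genes was 0.43, beside 0.02 over all tested genes. Whole liver was sequenced, so fewer biliary cells and less RNA per biliary cell cannot be told apart in any value given here. The spread behind these results came mainly from a pair of mice, as the plot by mouse shows.

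**Figure D1:**
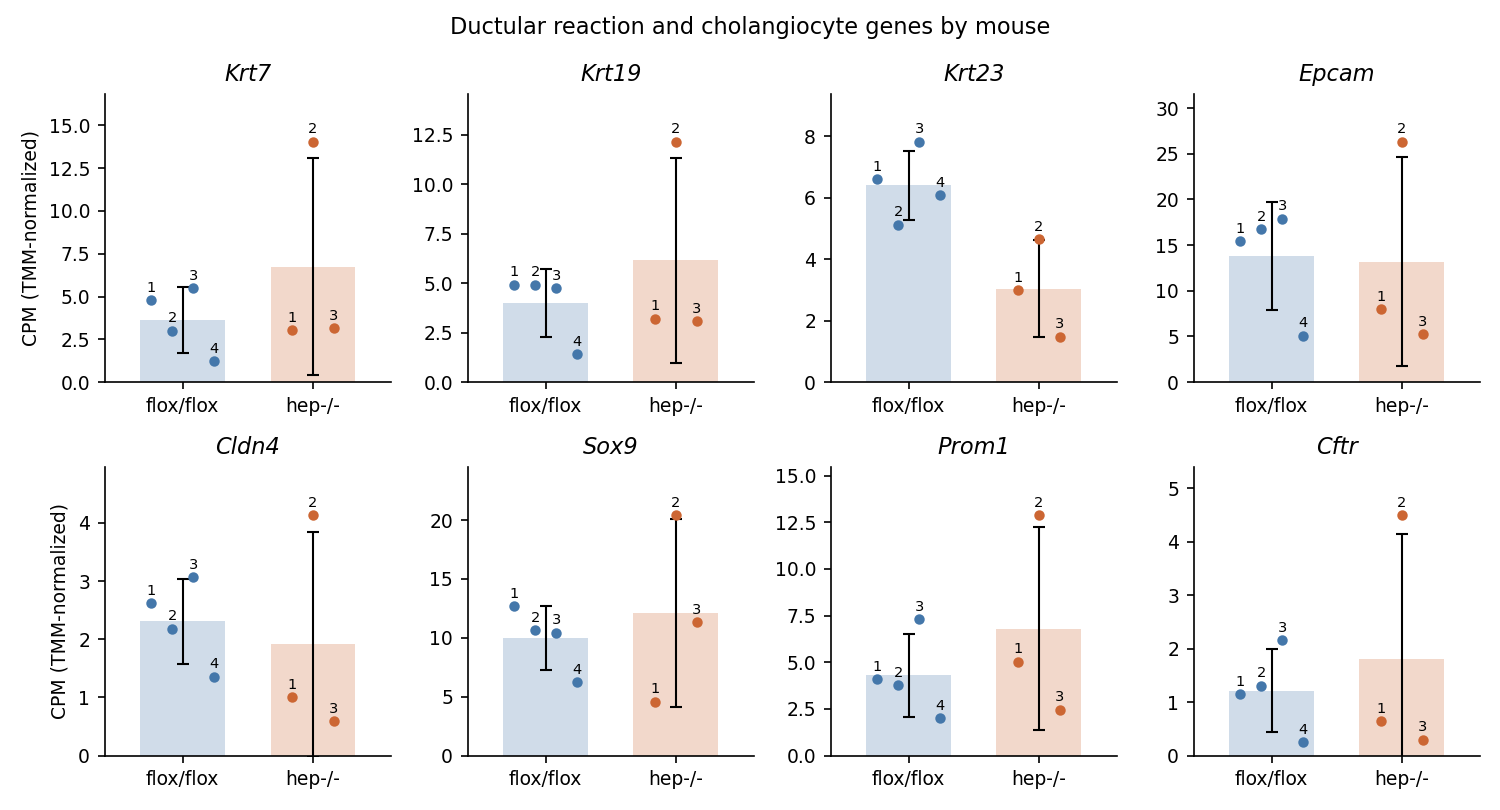
CPM (TMM-normalized, linear axis from 0) of the 8 genes in each mouse, with replicate numbers beside the points; bars are group means and error bars 1 SD (n = 4 flox/flox, n = 3 labelled hep-/-), which run below the axis for Cldn4 and Cftr. Mouse 2 labelled hep-/- is the highest point in every panel but that of Krt23, where all 3 mice labelled hep-/- lie below all 4 flox/flox mice.

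*Krt7*, a type II keratin of simple and ductal epithelium (NCBI gene 110310), had 4.81, 3.01, 5.48 and 1.24 CPM in flox/flox mice 1 to 4. In mice 1 to 3 labelled hep-/- it had 3.05, 14.1 and 3.16 CPM. A single liver labelled hep-/- was high and a single control liver low, and the other 5 livers lay between 3.01 and 5.48 CPM in overlapping ranges. Group means were 3.64 ± 1.91 CPM (SD, n = 4) and 6.76 ± 6.32 CPM (SD, n = 3), a log2 fold change of 0.89 with a 95% interval from -0.37 to 2.15 (edgeR adjusted p = 0.305).

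*Krt19*, the type I keratin that serves as the standard stain for bile ducts (NCBI gene 16669), had 4.92, 4.92, 4.76 and 1.41 CPM in flox/flox mice. Livers labelled hep-/- gave 3.21, 12.2 and 3.09 CPM. The controls were nearly equal except mouse 4, which was far under the rest, and the groups overlapped. The log2 fold change was 0.62 (95% interval -0.53 to 1.77, edgeR adjusted p = 0.441). The interval spans folds from 0.692 to 3.41, so a rise by that much could not be told from no change at this spread.

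*Krt23*, a type I keratin also found in injured hepatocytes (NCBI gene 94179), went its own way. It had 6.60, 5.12, 7.83 and 6.08 CPM in flox/flox mice 1 to 4, and 2.99, 4.65 and 1.48 CPM in mice 1 to 3 labelled hep-/-. Every liver labelled hep-/- lay below every flox/flox liver, which 15.0% of all tested genes also did. Means were 6.41 ± 1.13 CPM (SD, n = 4) and 3.04 ± 1.58 CPM (SD, n = 3). The log2 fold change of -1.07 (standard error 0.36, 95% interval -1.87 to -0.28) had an edgeR adjusted p of 0.0653 and missed the threshold. The adjusted p ran from 0.0184 to 0.133 over 20 alternative settings, with log2 fold changes from -1.54 to -0.76, and 6 of the settings called the gene lower.

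*Epcam*, the epithelial cell adhesion molecule by which biliary and progenitor cells are often sorted (NCBI gene 17075), was the most abundant of the 8 per length. It had 15.5, 16.8, 17.9 and 5.09 CPM in flox/flox mice and 8.02, 26.3 and 5.26 CPM in mice labelled hep-/-. The lowest livers of both groups were close, and hep-/- mouse 2 lay above every control. Means were 13.8 ± 5.90 CPM (SD, n = 4) and 13.2 ± 11.5 CPM (SD, n = 3), and the log2 fold change of -0.06 (95% interval -1.19 to 1.07, edgeR adjusted p = 0.946) turned to 0.0021 with upper-quartile normalization. The interval allows folds from 0.437 to 2.10.

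*Cldn4*, a tight junction protein of duct epithelium (NCBI gene 12740), had 2.62, 2.18, 3.07 and 1.36 CPM in flox/flox mice and 1.01, 4.13 and 0.592 CPM in mice labelled hep-/-. Livers labelled hep-/- were the highest (mouse 2) and the lowest (mice 1 and 3), with the controls between them. The log2 fold change was -0.27 (95% interval -1.55 to 1.01, edgeR adjusted p = 0.779). *Cldn4* rested on few reads, 18 to 137 per library.

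*Sox9*, a transcription factor of biliary cells and of periportal hepatocytes with biliary features (NCBI gene 20682), had 12.7, 10.6, 10.5 and 6.22 CPM in flox/flox mice. It had 4.58, 20.4 and 11.3 CPM in mice labelled hep-/-, which put mouse 3 of that group among the controls while most other genes of the set were low in it. The log2 fold change of 0.28 (95% interval -0.61 to 1.16, edgeR adjusted p = 0.668) turned to -0.038 on log2(FPKM + 0.1). On that scale the median of all tested genes was -0.10, against 0.02 with TMM.

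*Prom1*, which encodes CD133, a membrane protein of progenitor cells (NCBI gene 19126), had 4.09, 3.76, 7.31 and 2.01 CPM in flox/flox mice and 5.03, 12.9 and 2.47 CPM in mice labelled hep-/-. It was the one gene of the set for which hep-/- mouse 1 exceeded 3 of the 4 control livers. Its log2 fold change was 0.66 (95% interval -0.47 to 1.79, edgeR adjusted p = 0.401).

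*Cftr* (NCBI gene 12638) was the rarest transcript, with 1.15, 1.31, 2.16 and 0.254 CPM in flox/flox mice and 0.649, 4.49 and 0.296 CPM in mice labelled hep-/-. The livers of flox/flox mouse 4 and hep-/- mouse 3 gave 9 reads each, against 149 in hep-/- mouse 2. The log2 fold change was 0.57 with the widest interval of the set, -1.23 to 2.38 (edgeR adjusted p = 0.660). Over the 7 livers *Cftr* varied 17.7-fold, the most of the 8 genes, and *Sox9* varied 4.46-fold, the least.

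Levels of different genes can be compared only per length, for which the deposited FPKM values serve. In flox/flox livers *Epcam* was highest at 7.10 ± 3.24 FPKM (SD, n = 4), followed by *Krt23* at 4.33 ± 1.0, *Krt19* at 3.0 ± 1.40, *Sox9* at 2.55 ± 0.865 and *Krt7* at 2.46 ± 1.40 FPKM. *Cldn4* at 1.35 ± 0.504, *Prom1* at 0.519 ± 0.286 and *Cftr* at 0.206 ± 0.135 FPKM were the lowest. *Krt19*, *Sox9* and *Krt7* did not differ beyond their spread. In livers labelled hep-/- *Epcam* was again first at 6.53 ± 6.36 FPKM (SD, n = 3). *Krt19* at 4.42 ± 4.22 and *Krt7* at 4.36 ± 4.54 FPKM came next, and *Krt23* at 1.94 ± 1.22 FPKM stood after *Sox9* at 2.91 ± 2.21. SDs were near the means for *Epcam*, *Krt19* and *Krt7* and smaller for *Sox9* and *Krt23*, so that order is a description of 3 mice.

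Apart from *Krt23*, the genes shared a profile over the mice that cut across the groups. Of the 8, 7 were highest in hep-/- mouse 2, and the exception was *Krt23*. Among all tested genes 26.4% were highest in that liver. Likewise 5 of the 8 were lowest in flox/flox mouse 4, beside 12.1% of all tested genes. Mouse 2 labelled hep-/- exceeded the mean of its group mates at least 2-fold in all 8 genes, from 2.08-fold for *Krt23* to 9.51-fold for *Cftr*, and 9.59% of all tested genes reached that 2-fold mark. The mean of flox/flox mice 1 to 3 exceeded mouse 4 at least 2-fold in 5 of the 8 genes, from 2.52-fold for *Prom1* to 6.04-fold for *Cftr*, where 6.49% of all tested genes did. *Krt23*, at 1.07-fold, was hardly lower in that control than in the others. The coefficient of variation of the 8 genes was 17.6% to 64.0% in flox/flox mice and 52.1% to 128% in mice labelled hep-/-, and its median over all tested genes was 21.4% and 24.9%.

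**Figure D2:**
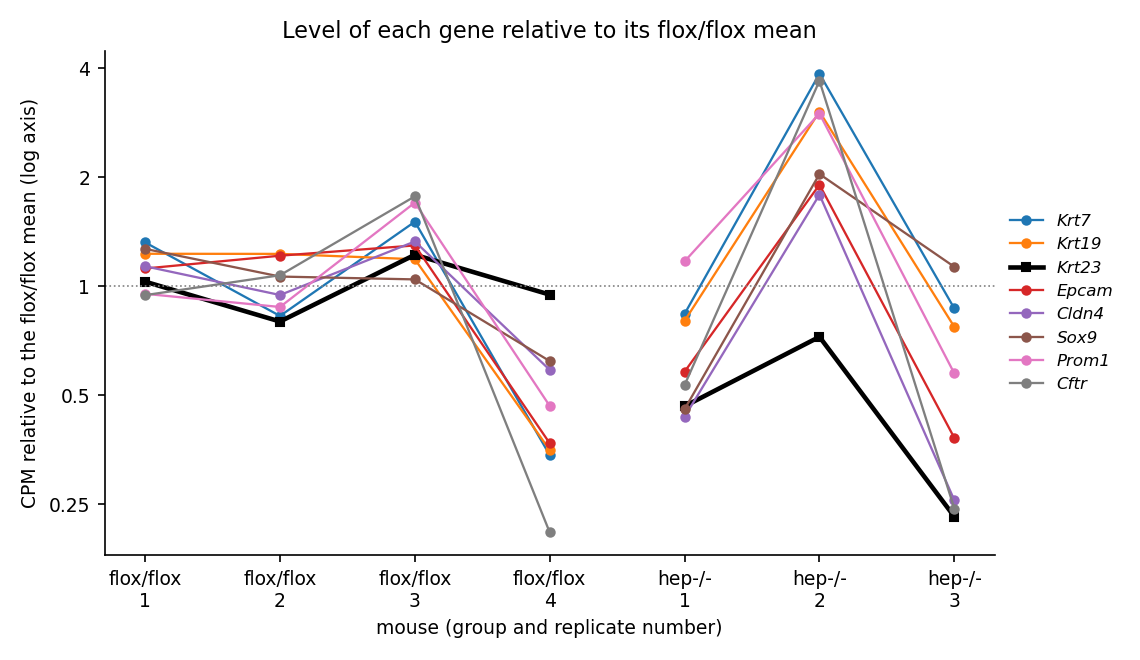
CPM of each gene in each mouse divided by the mean of the 4 flox/flox mice (log axis, 1 = that mean); lines join the values of a gene within a group and the mice have no order. Apart from Krt23 (black squares), the genes fall together to between 0.209 and 0.622 in flox/flox mouse 4 and rise to between 1.79 and 3.87 in mouse 2 labelled hep-/-.

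The sign of most fold changes depended on hep-/- mouse 2. Without it the log2 fold changes of *Krt7*, *Krt19*, *Sox9*, *Prom1* and *Cftr* turned from above 0 to -0.23, -0.35, -0.33, -0.20 and -1.36. Those of *Epcam* and *Cldn4* went to -1.06 and -1.53. With all 8 genes then below 0, *Krt23* was called (-1.52, edgeR adjusted p = 0.0272) and no other was. Leaving out flox/flox mouse 4 instead kept the sign of all 8. Without both, *Epcam* was called lower (-1.33, edgeR adjusted p = 0.0191) and so was *Krt23* (-1.54, adjusted p = 0.0403). The fit without both was tried after the values had been seen, these fits leave 2 to 4 mice in a group, and the labels give no reason to set either mouse aside. Without hep-/- mouse 3, whose *B4galt1* was not lower than in controls, none of the 8 was called, and *Krt23* stood at -0.76 (edgeR adjusted p = 0.129).

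**Figure D3:**
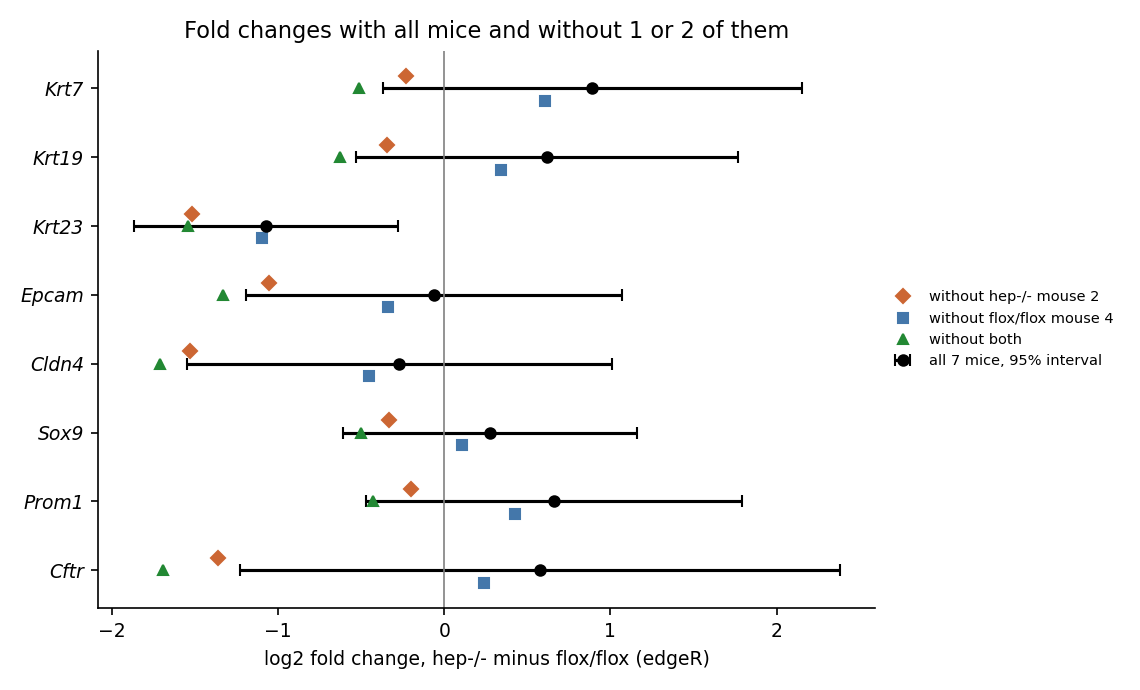
Log2 fold changes of the 8 genes (hep-/- minus flox/flox, edgeR) with all 7 mice (black, with 95% intervals), without mouse 2 labelled hep-/- (diamonds), without flox/flox mouse 4 (squares) and without both (triangles). Krt23 stays below 0 in all 4 fits, whereas Krt7, Krt19, Sox9, Prom1 and Cftr change side when mouse 2 labelled hep-/- is left out; Epcam with all mice lies at -0.06 and turns to 0.0021 with upper-quartile normalization, and Sox9 at 0.28 turns to -0.038 on log2(FPKM + 0.1).

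Ratios of genes within a library depend on no scaling between libraries, and they show whether the genes kept their proportions. *Krt7* varied 11.3-fold over the mice, but its counts per *Krt19* count varied 1.89-fold, between 0.612 and 1.16. The keratin pair thus kept its proportion in the high and the low mice alike. Relative to *Epcam*, both were higher in livers labelled hep-/-: *Krt19* counts per *Epcam* count were 0.266 to 0.319 in flox/flox livers and 0.401 to 0.588 in livers labelled hep-/-. For *Krt7* the ratios were 0.180 to 0.311 and 0.381 to 0.600. *Prom1* per *Epcam* ran from 0.225 to 0.408 and from 0.469 to 0.628. These 3 ratios did not overlap between the groups, whereas those of *Sox9*, *Cldn4*, *Cftr* and *Krt23* to *Epcam* did. Over the other 15178 tested genes, 2.94% had counts per *Epcam* count that were higher in every liver labelled hep-/- than in every flox/flox liver. *Epcam* itself varied 5.18-fold over the mice, so the ratio of a gene without its profile mostly follows *Epcam*. That share therefore does not say how often ratios among biliary genes would separate the groups. *Krt23* counts per *Epcam* count reached 1.19 in flox/flox mouse 4 and sank to 0.176 in hep-/- mouse 2. *Epcam* was taken as the denominator after the values had been seen, so the 8 ratios computed were not tested.

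**Figure D4:**
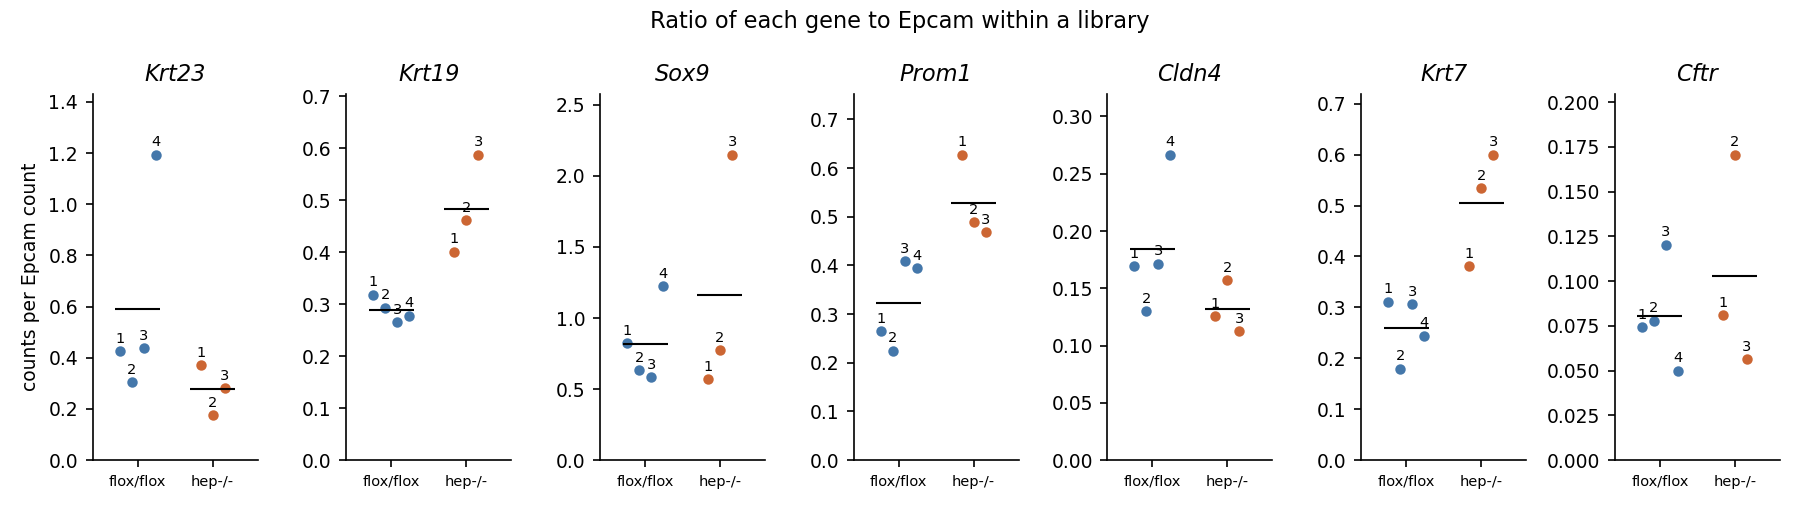
Counts of 7 genes divided by the Epcam count of the same library (linear axes from 0), with replicate numbers; black lines are group means. The ratios of Krt19, Krt7 and Prom1 lie higher in all 3 mice labelled hep-/- than in all 4 flox/flox mice, and the other 4 ratios overlap.

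Genes outside the set were next asked which of them had the most similar profile. The 8 genes' log2 CPM values, each centred on its mean over the 7 mice, were averaged, and the root mean square difference from that profile was taken for 1634 genes that varied at least as much. The nearest were *Veph1* (0.24), *Slc5a1* (0.26), *Slc44a4* (0.27), *Cldn7* (0.27) and *Plet1* (0.28), in log2 units over 7 mice. *Slc5a1* and *Cldn7* also belong to lists read below. All 5 were low in flox/flox mouse 4 and high in hep-/- mouse 2, as the choice by profile required. *Plet1*, for example, had 6.97, 6.27, 7.15 and 2.43 CPM in flox/flox mice and 2.14, 9.95 and 2.40 CPM in mice labelled hep-/-. *Cldn7*, another claudin, had 4.12, 3.01, 4.55 and 0.932 CPM in flox/flox mice and 1.92, 5.07 and 1.22 CPM in mice labelled hep-/-.

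A further list of 20 genes of biliary identity, such as *Spp1* and *Muc1*, was read in the same way. Of its 19 tested genes none was called by edgeR, and 3 had an unadjusted p under 0.05, where 15.8% of all tested genes were called and 32.9% had such a p. In 7 of 20 alternatives, DESeq2 and upper-quartile scaling among them, 1 or 2 were called. The median log2 fold change was 0.22. Of the 20 genes, 11 were highest in hep-/- mouse 2 and 8 were lowest in flox/flox mouse 4. *Onecut2*, a transcription factor of early bile duct development, had the lowest p of the list, at a log2 fold change of 0.57 (edgeR adjusted p = 0.0592). With upper-quartile scaling it was called (0.60, adjusted p = 0.0388), as it was with at least 10 counts in every mouse (0.58, adjusted p = 0.0432). It had 55.3 to 67.8 CPM in flox/flox livers and 77.1 to 108 CPM in livers labelled hep-/-, without overlap, as in 13.6% of all tested genes. The simple epithelial keratins that hepatocytes share with ducts behaved unlike *Krt7* and *Krt19*. *Krt8*, whose protein pairs with that of *Krt18* in hepatocytes, had 313 to 464 CPM in flox/flox livers and 235 to 365 CPM in livers labelled hep-/-, and was lowest in hep-/- mouse 2 (log2 fold change -0.33, edgeR adjusted p = 0.351). The list of these keratins also held *Krt80*, which was tested, and *Krt20*, which was not. None of its 3 tested genes was called by edgeR or by DESeq2, or had an unadjusted edgeR p under 0.05. On log2(FPKM + 1), *Krt8* had an unadjusted limma p of 0.0142 (adjusted p = 0.0705).

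Genes of bile modification and of the primary cilium came to 14, of which 13 were tested and 10 were highest in hep-/- mouse 2. *Pkd1*, which encodes polycystin 1 of the cilium, was the one gene called (15.8% of all tested genes were), and over 20 alternatives the list had 0 to 4 calls, 3 with DESeq2. *Pkd1* was higher, from 25.8 ± 9.0 to 52.3 ± 19.9 CPM, at a log2 fold change of 1.02 (edgeR adjusted p = 0.0371), and it lost the call in 10 of 20 alternatives. *Sctr*, the secretin receptor of cholangiocytes, had 0.398 to 1.89 CPM in flox/flox livers and 2.11, 8.84 and 0.724 CPM in livers labelled hep-/-, and was not called.

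Notch signalling directs hepatoblasts and injured hepatocytes towards the biliary fate. Of 18 tested genes of the pathway 3 were called higher and 1 lower, 4 in all where 15.8% of all tested genes were called, and the median over the 18 was 0.31 on the log2 scale. Among receptors and ligands, *Notch4*, a receptor best known from endothelium, was higher by 1.83 on the log2 scale (edgeR adjusted p = 0.0145) and the ligand gene *Dll1* by 1.0 (0.0345). *Jag1*, the ligand of bile duct development, was at 7.57 to 11.8 CPM in flox/flox livers and at 11.5, 26.4 and 14.2 CPM in livers labelled hep-/-, and was not called (log2 fold change 0.75, adjusted p = 0.0915). Of the nuclear genes, the target *Hes1* was higher by 0.85 (adjusted p = 0.0299) and *Rbpj*, the DNA-binding partner of all Notch receptors, fell by 0.71 on the log2 scale (adjusted p = 0.0337). *Hes1* had 8.96 to 14.4 CPM in flox/flox livers and 22.7, 21.9 and 16.7 CPM in livers labelled hep-/-, so it was not highest in hep-/- mouse 2. Without hep-/- mouse 2 none of the 4 passed the threshold, at log2 fold changes of 1.39 for *Notch4*, 0.90 for *Dll1*, 0.80 for *Hes1* and -0.71 for *Rbpj*, while the calls over all genes fell from 2404 to 1199. Over 20 alternatives *Dll1* lost the call in 12, *Rbpj* in 10, *Hes1* in 9 and *Notch4* in 3. The replicate number as a block left 1 call in the pathway.

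Of 19 tested genes of the Hippo pathway and its effector YAP, which also favours biliary features, *Sav1* alone was called, beside 15.8% of all tested genes. *Sav1*, a scaffold of the Hippo kinases, had 16.8 to 22.9 CPM in flox/flox livers and 32.3, 33.2 and 54.0 CPM in livers labelled hep-/- (log2 fold change 1.07, edgeR adjusted p = 0.0109), and it lost the call in 1 of 20 alternatives. *Yap1* itself had 60.3 to 68.7 and 62.0 to 77.5 CPM, and its log2 fold change was 0.08 (adjusted p = 0.768). The YAP targets *Ccn1* and *Ccn2* had log2 fold changes of 0.02 and 0.29 (edgeR adjusted p = 0.978 and 0.667).

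A list of 23 signals and matrix genes around ductular cells had 19 tested genes, of which 3 were called, all higher, a share like the 15.8% of all tested genes called. DESeq2 called 5, and the range over 20 alternatives was 1 to 5. *Tnfsf12* encodes TWEAK, a cytokine that makes biliary progenitors divide, and *Tnfrsf12a* its receptor FN14. *Tnfrsf12a* had 23.7, 36.5, 18.7 and 34.8 CPM in flox/flox mice and 55.1, 46.7 and 61.9 CPM in mice labelled hep-/- (log2 fold change 0.94, standard error 0.24, edgeR adjusted p = 0.0249). *Tnfsf12* had 13.1, 13.7, 8.86 and 15.6 CPM and 23.7, 23.9 and 16.9 CPM (log2 fold change 0.75, standard error 0.23, adjusted p = 0.0461). Neither overlapped between the groups, as in 13.6% of all tested genes, and neither was low in flox/flox mouse 4, where the biliary genes were. *Tnfsf12* lost the call in 11 of 20 alternatives and *Tnfrsf12a* in 4. The third, the chemokine gene *Cxcl1*, kept the call in all 20 (13.3, 9.96, 8.22 and 14.0 CPM against 21.2, 21.7 and 29.4 CPM, log2 fold change 1.08, edgeR adjusted p = 0.0122). *Mmp7*, a matrix protease of duct epithelium, followed the biliary profile with 47.0, 56.0, 68.6 and 7.63 CPM and 26.7, 136 and 22.9 CPM, and was not called (adjusted p = 0.665).

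Markers of other cells were read to see what else moved with the high and the low mouse. Stellate cell markers summed to 0.732 to 1.37 of the flox/flox mean in flox/flox mice and to 0.759 to 1.42 in mice labelled hep-/-, with flox/flox mouse 4 the lowest and hep-/- mouse 2 the highest of all livers. *Col1a1*, *Des* and *Hand2* each had these mice at the ends of their range, while *Lrat*, which marks quiescent stellate cells, was highest in flox/flox mouse 4 (28.9 CPM) and lowest in hep-/- mouse 2 (8.29 CPM). Of the 7 markers 3 were highest in hep-/- mouse 2 and 4 were lowest in flox/flox mouse 4. Without *Col1a1*, a collagen gene with much of the sum, the other 6 (a choice made after the values were seen) summed to 0.83 to 1.21 and 0.933 to 1.09, and neither mouse was the lowest or the highest of the 7 livers. Portal fibroblast markers, which come from the same portal tracts as bile ducts, ran from 0.608 to 1.54 and from 0.641 to 1.47, again with flox/flox mouse 4 lowest, and hep-/- mouse 2 second to flox/flox mouse 1. Of these lists 1 of 7 and 0 of 5 tested genes were called by edgeR, where 15.8% of all tested genes were. Hepatocyte markers summed to 0.786 to 1.19 and 0.968 to 1.51, and none of 8 was called, while 2 had an unadjusted p under 0.05. The part of these cells in the biliary values was not tested.

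Macrophage markers did not overlap between the groups, at 0.684 to 1.5 of the flox/flox mean in flox/flox livers and 0.320 to 0.394 in livers labelled hep-/-. Of these markers 4 of 5 were called lower, where 7.83% of all tested genes were, and over 20 alternatives 1 to 4 were called. Endothelial markers ran from 0.562 to 1.97 and from 0.790 to 0.907 (1 of 5 called, lower), and lymphocyte markers from 0.623 to 1.59 and from 0.867 to 2.15 (0 of 5 called, and none with an unadjusted p under 0.05). Other epithelia also make *Krt7*, *Krt19* and *Epcam*. Of the mesothelial markers *Upk1b*, *Upk3b* and *Lrrn4* were at 0 to 0.263 CPM and *Msln* at 0 to 0.598 CPM in every liver, while *Wt1* ran from 1.02 to 4.58 CPM and was highest in hep-/- mouse 2. Of the pancreatic acinar markers *Cpa1*, *Prss2*, *Ctrb1* and *Pnlip* were at 0 to 0.0603 CPM outside flox/flox mouse 2, where they reached 0.402 to 1.41 CPM, and *Amy2a5* was at 0 in all. *Cela1* was at 6.03 to 12.4 CPM in every liver. The intestinal marker *Vil1* was at 0.292 to 2.68 CPM, highest in hep-/- mouse 2, and *Fabp2* at 60.9 to 190 CPM, lowest there.

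**Figure D5:**
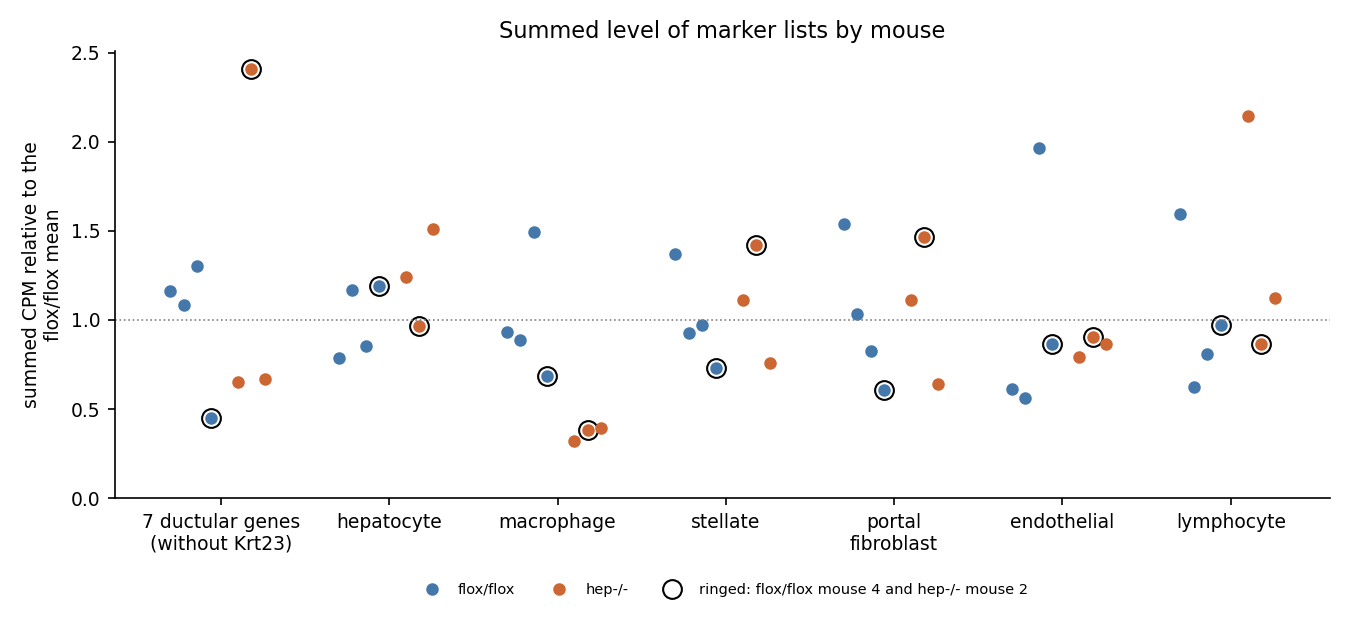
Summed CPM of 7 ductular genes (without Krt23) and of marker lists of 6 other cell types in each mouse, divided by the mean of the 4 flox/flox mice (linear axis from 0), with flox/flox mouse 4 and mouse 2 labelled hep-/- ringed. The ductular sum reaches 2.41 in the ringed mouse labelled hep-/- and 0.448 in the ringed control, stellate and portal fibroblast sums cover a narrower range, and macrophage markers separate the groups. Krt23 was left out after the values had been seen, and with it the ductular sums are 2.17 and 0.518. The sums of the 20 biliary identity genes, not drawn, are 1.01 and 0.870 in these mice.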

How the data were processed

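RNA-seq of whole liver covered 4 *B4galt1* flox/flox and 3 *B4galt1* hep-/- mice (labels WT and B4galt1-HKO), 1 library per mouse. The authors deposited raw counts per gene and FPKM values for the same genes, which scale each count by gene length and library total. The submitters' processing notes name fastp, HISAT2, HTSeq, DESeq2, R 3.2.0 and GRCm39. The annotation and strand setting are not given in the sources used here. Members and lists were chosen with earlier results of these data known.

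Genes passing edgeR's filterByExpr (minimum count 10, minimum total 15) were scaled by TMM. Group was the single term of a quasi-likelihood fit (edgeR 4.0.16, R 4.3.3), with Benjamini-Hochberg adjustment over 15179 genes. The study used DESeq2 with the same thresholds. Standard errors came from the F statistic. The counts behind values below about 1 CPM are few, with 3 counts equal to 0.0690 to 0.0987 CPM. All 21 pairs of libraries differed beyond sampling noise, and separate animals are known only from the labels and the numbers of mice that the paper states. The fit was checked on simulated data.

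The text names the 8 members, the up to 3 genes of lowest p per direction called in each other list (or the gene of lowest p), marker genes, the 5 nearest profiles and *B4galt1*. *Sctr*, *Jag1*, *Yap1*, *Ccn1*, *Ccn2* and *Mmp7* were added after their values were seen. Tried beside this were RLE and upper-quartile scaling, DESeq2 1.42.0, other filters, limma (3.58.1) on FPKM with pseudocounts of 1 and 0.1, voom with sample weights, a replicate block, no mitochondrial genes, no fold threshold and each mouse left out. Leaving out a pair of mice together was added after seeing the data.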

Additional observations from a re-analysis of the deposited data

Results flagged for a closer look

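1 result among 20 genes whose CPM values were screened stood out by the spacing of the 4 flox/flox mice. *Krt19* had 1.41 CPM in flox/flox mouse 4, and the gap to the next mouse took up 0.953 of the group's range, above Dixon's 95% critical value for 4 samples. By chance about 5% of such groups are set apart, which is 1 in 20.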

How the results depend on the processing

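Of the 8 genes none was called, and under RLE or upper-quartile scaling, a minimum of 10 counts in every mouse, no mitochondrial genes, no fold threshold, log2(FPKM + 1) and the replicate block the count was again 0. It was 1, *Krt23*, with DESeq2, no count filter, log2(FPKM + 0.1) and voom, between 0 and 1 when 1 mouse was left out, and 2 without flox/flox mouse 4 and hep-/- mouse 2 together. Without each mouse in turn, log2 fold changes ran from -0.23 to 1.24 for *Krt7*, from -0.35 to 0.93 for *Krt19*, from -1.06 to 0.30 for *Epcam*, from -1.53 to 0.14 for *Cldn4*, from -0.33 to 0.66 for *Sox9*, from -0.20 to 1.05 for *Prom1* and from -1.36 to 1.06 for *Cftr*. *Epcam* turned to 0.0021 with upper-quartile scaling and *Sox9* to -0.038 on log2(FPKM + 0.1). With voom *Sox9* was at -0.34 and *Cftr* at -0.51. Without both mice *Krt7* was at -0.51, *Krt19* at -0.62, *Sox9* at -0.50, *Prom1* at -0.43 and *Cftr* at -1.69. *Cftr* had no value under the minimum of 10 counts. *Krt23* kept its sign in all 20 alternatives. Over all genes 2404 were called, but 1330 on log2(FPKM + 1) over all genes above 0, 1115 without both mice, and 885 to 2396 when 1 mouse was left out (885 without flox/flox mouse 2, 1405 without mouse 3, 1552 without mouse 4 and 1199 without hep-/- mouse 2). The share of calls that were higher was 50.5%, and 18.2% to 26.2% on FPKM. The cause was not tested. The replicate number as a block gave 1225 calls, *Sox9* at -0.11 and *Cftr* at -0.55. Deviations of mice with the same number correlated at -0.337, -0.034 and 0.078, which shows no sign of pairing but cannot exclude it. The fit with the block leaves out flox/flox mouse 4. SDs of the 8 genes were 52.1% to 128% of the mean in mice labelled hep-/- and 17.6% to 64.0% in flox/flox mice. With 4 mice against 3, intervals span folds of 2 or more for most of the genes.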

Other observations

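The table held 22 numbered keratin genes, of which 7 had enough counts to be tested. None was called by edgeR, and 1, *Krt23*, had an unadjusted p under 0.05, where 15.8% of all tested genes were called and 32.9% had such a p. Apart from *Krt7*, *Krt8*, *Krt18*, *Krt19* and *Krt23*, the tested ones were *Krt10*, at 1.53 to 2.85 CPM in flox/flox livers and 1.88 to 4.74 CPM in livers labelled hep-/-, and *Krt80*, at 0.803 to 1.5 and 0.487 to 1.06 CPM. Keratins of stratified epithelium such as *Krt5* and *Krt17* stayed at or under 0.176 CPM in every liver.

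*Lgals4*, galectin 4, listed here as an intestinal marker, was the member of the marker lists with the largest fold change. It had 56.8, 28.3, 16.8 and 54.3 CPM in flox/flox mice and 185, 255 and 131 CPM in mice labelled hep-/- (log2 fold change 2.28, edgeR adjusted p = 0.00572). The values did not overlap, as in 13.6% of all tested genes.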
